A study of Mus musculus with 9 samples.

Results

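AP-1 and EGR immediate early factors are transcription factors whose genes respond within minutes when a cell is stimulated. The 10 genes described here were chosen by name: the FOS family (Fos, Fosb, Fosl1 and Fosl2), the JUN family (Jun, Junb and Jund) and the EGR family (Egr1, Egr2 and Egr3). All 10 were found among the 54059 genes of the deposited expression table, and 9 of them had a value above 0 in at least 1 library. Levels are in FPKM, which scales reads to transcript length and library size. The length used matched the mean over the annotated transcripts of a gene, so comparisons between genes are approximate. Tests covered the 11450 genes with a mean of at least 1 FPKM over the 9 libraries, and 7 of the 10 genes were among them. Fosb, Egr2 and Egr3 fell below that level and are described by their values.

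The study asked how the tyrosine phosphatase SHP2, encoded by Ptpn11, acts in macrophages that meet IMQ (imiquimod), an agonist of the endosomal RNA sensor TLR7. Peritoneal macrophages gave 3 groups of 3 RNA-seq libraries, made from poly(A) RNA with a kit that does not mark strand. Wild-type C57BL/6 macrophages, M-Shp2-/- macrophages and wild-type macrophages pretreated with SHP099, an allosteric inhibitor that locks SHP2 closed, were compared. The labels name the groups as WT, SHP2lyz2-/- and SHP099 and put the age of the mice at 8 weeks. The labels do not mention IMQ. By the study's methods, the cells of all groups received IMQ for 4 h, and the dose stated for the SHP099 experiment was 10 µg/ml after 2 h of pretreatment with 10 µM SHP099. No vehicle for SHP099 is named for this experiment. M-Shp2-/- mice carry a floxed Ptpn11 gene that is cut by Cre under the Lyz2 promoter, which is active in macrophages and also in neutrophils. The cells had been drawn to the peritoneum with starch broth and selected by adherence. No library without IMQ was analysed here, so the response to IMQ itself cannot be read from these data. Nothing in the labels says whether the 3 samples of a group came from separate mice, and the tests measure only the spread between these samples.

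The normalization behind the values rests on 39841813 to 50979545 reads per library, as recovered from the steps between low values. Ptpn11 had an FPKM of 45.8, 44.0 and 40.0 in wild-type, 18.6, 17.8 and 18.9 in M-Shp2-/- and 43.0, 42.1 and 39.6 in SHP099-treated macrophages, in keeping with the labels (log2 fold change -1.19, adjusted p = 0.0168, limma, M-Shp2-/- against wild type). Lyz2, whose promoter drives Cre in the M-Shp2-/- mice, was at 7440, 10228 and 7951 in wild-type, 4863, 4743 and 5407 in M-Shp2-/- and 9348, 10280 and 10715 in SHP099-treated macrophages. The 8 macrophage markers (Adgre1, Cd68, Csf1r, Lyz2, Itgam, Fcgr1, Mertk and Mrc1) all reached 1 FPKM in some library, and their summed FPKM, most of it Lyz2, lay between 6950 and 12569. Within the 8, Mrc1 was at 43.5 to 61.5 FPKM in wild-type, 19.4 to 71.2 in M-Shp2-/- and 9.79 to 10.3 in SHP099-treated macrophages, and Csf1r at 58.2 to 111, 71.8 to 176 and 181 to 211 FPKM. Resident peritoneal macrophage markers were low, with a summed FPKM of 22.8 to 43.5 over 5 genes. Among the markers of other cells, the neutrophil gene S100a8, which macrophages can also express, was at 34.5 to 95.4 FPKM, S100a9 reached 1.11 FPKM and the NK cell gene Gzma 1.56 FPKM. The NK cell genes Ncr1 and Klrb1c, the neutrophil genes Ly6g, Retnlg and Mpo, and the eosinophil genes Epx, Prg2 and Siglecf stayed under 1 FPKM in every library.

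Libraries of a group were not equally alike. Over the 11450 genes, M-Shp2-/- replicate 3 had a Pearson correlation of 0.967 and 0.954 with the other libraries of its group, which had 0.992 with each other, and its closest library was SHP099 replicate 1 at 0.984. Wild-type replicate 3 had 0.976 and 0.974 with the other wild-type libraries, which had 0.984 with each other. The closest library of wild-type replicate 3 was SHP099 replicate 3 (0.978), and that of wild-type replicate 1 was M-Shp2-/- replicate 2 (0.988). The 3 SHP099 libraries had 0.988 to 0.991. For the members, values below are therefore given for each library, and tests of members that the choice of libraries bears on also without wild-type replicate 3 or M-Shp2-/- replicate 3. Tests of the other genes and the counts of lists were not repeated without them.

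AP-1 is a dimer of a FOS and a JUN protein, or of JUN proteins alone, that binds DNA through a basic leucine zipper. EGR proteins are zinc finger factors that bind GC-rich elements. Growth factor receptors and innate sensors switch these genes on through the RAS-ERK, JNK and p38 kinase cascades, in which SHP2 acts upstream of RAS, and in macrophages the proteins take part in the transcription of cytokine and protease genes.

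The start regions of 4 members are shown because all their SHP099 libraries lay on the same side of all wild-type libraries (below): lower for Fos, Fosl2 and Junb, and higher for Jun. Egr1 and Egr3 also met this, but no region of either was in the table used. Each region holds the 250 bases before a RefSeq start site and the 50 bases from it, 5′ to 3′ on the strand of the gene, from RefSeq (GRCm38.p6). RefSeq start sites can differ from the GENCODE gene starts given below: that of Fosl2 lies inside the GENCODE gene, and that of Junb just upstream of it. They lie at chr12:85473640-85473939 for Fos and chr5:32136222-32136521 for Fosl2 on the plus strand, and at chr4:95052173-95052472 for Jun and chr8:84978699-84978998 for Junb on the minus strand. Capitals mark matches to any of the motifs searched.
Fos: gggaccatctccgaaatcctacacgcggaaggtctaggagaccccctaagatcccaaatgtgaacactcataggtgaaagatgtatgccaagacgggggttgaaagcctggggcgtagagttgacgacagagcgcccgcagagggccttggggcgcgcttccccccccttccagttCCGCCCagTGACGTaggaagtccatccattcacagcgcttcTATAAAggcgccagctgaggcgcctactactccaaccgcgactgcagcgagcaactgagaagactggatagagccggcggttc
Fosl2: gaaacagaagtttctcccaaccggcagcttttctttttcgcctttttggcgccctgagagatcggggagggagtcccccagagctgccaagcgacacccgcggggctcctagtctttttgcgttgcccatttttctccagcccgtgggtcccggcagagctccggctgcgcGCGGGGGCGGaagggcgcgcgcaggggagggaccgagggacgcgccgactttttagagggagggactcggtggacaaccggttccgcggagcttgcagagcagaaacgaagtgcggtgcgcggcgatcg
Jun: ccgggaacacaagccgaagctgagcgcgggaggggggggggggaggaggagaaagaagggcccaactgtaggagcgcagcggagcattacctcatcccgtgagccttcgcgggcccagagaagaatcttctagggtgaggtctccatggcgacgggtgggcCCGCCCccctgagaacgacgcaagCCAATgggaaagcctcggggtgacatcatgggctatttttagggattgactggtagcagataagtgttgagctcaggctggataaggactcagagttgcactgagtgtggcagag
Junb: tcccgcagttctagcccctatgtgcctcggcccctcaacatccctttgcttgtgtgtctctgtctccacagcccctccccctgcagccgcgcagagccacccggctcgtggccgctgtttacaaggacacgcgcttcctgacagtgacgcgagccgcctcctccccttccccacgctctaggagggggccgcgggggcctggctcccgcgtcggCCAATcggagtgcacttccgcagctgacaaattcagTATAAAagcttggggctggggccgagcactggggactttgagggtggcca
The motifs, searched on both strands, were the AP-1 element TGANTCA, the cAMP response element core TGACGT, the EGR element GCGNGGGCG, the STAT element TTCNNNGAA, the GC box GGGCGG, the CCAAT box, the TATA box TATAAA and the CArG box, the element of serum response factor. In Fos, a GC box on the opposite strand lay at -74 to -69, a cAMP response element core at -66 to -61 and a TATA box at -33 to -28 from the start site. In Fosl2, an EGR element at -79 to -71 overlapped a GC box at -75 to -70. Jun had a GC box at -89 to -84 and a CCAAT box at -65 to -61, and Junb a CCAAT box at -36 to -32 and a TATA box at 1 to 6, which is upstream of the GENCODE start. RefSeq regions of this kind were used for 7 of the 10 members. Egr2 had 5 regions and the others 1 each, and a member was counted if any of its regions matched, whereas the percentages are per region. None of the 7 held the AP-1 or the STAT element in the letters searched, which 7.81% and 8.30% of all 32851 such regions held. Sites of other spelling were not counted, so their absence is not shown. The Jun region, for example, holds tgacatca, which differs from TGANTCA by an extra base. The EGR element was found in Fosb and Fosl2 (5.55% of all regions), the cAMP response element core in Fos and Egr2 (7.51%), the TATA box in Fos and Junb (13.6%), and the CArG box in Egr2 (1.63%). The GC box was found in 5 of the 7 (35.7% of all regions) and the CCAAT box in 3 (37.4%). A match describes the letters of the region and is not a measurement of binding.

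Junb was the most abundant member, with a mean of 683 FPKM over the 9 libraries, and only 1.00% of the genes tested had a higher mean. It was followed by Fosl2 (71.7 FPKM), Jun (39.6 FPKM), Fosl1 (5.85 FPKM), Fos (4.62 FPKM), Jund (3.65 FPKM), Egr1 (3.04 FPKM), Egr3 (0.592 FPKM) and Fosb (0.0535 FPKM), and Egr2 was listed at 0. The gaps from Junb to Fosl2 and from Jun to Fosl1 held in every library. Fosl1, Fos, Jund and Egr1 had overlapping ranges and could not be ordered among themselves. The Jun-family message was thus mostly Junb, which made up 90.9% to 97.5% of the summed FPKM of the 3 Jun-family genes. Fosl2 made up 82.6% to 94.9% of the summed FPKM of the 4 Fos-family genes, and Fos 1.69% to 10.5%. This order and these shares depend on the length used for each gene, and overlaps with other genes (below) were not corrected for.

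**Figure D1:**
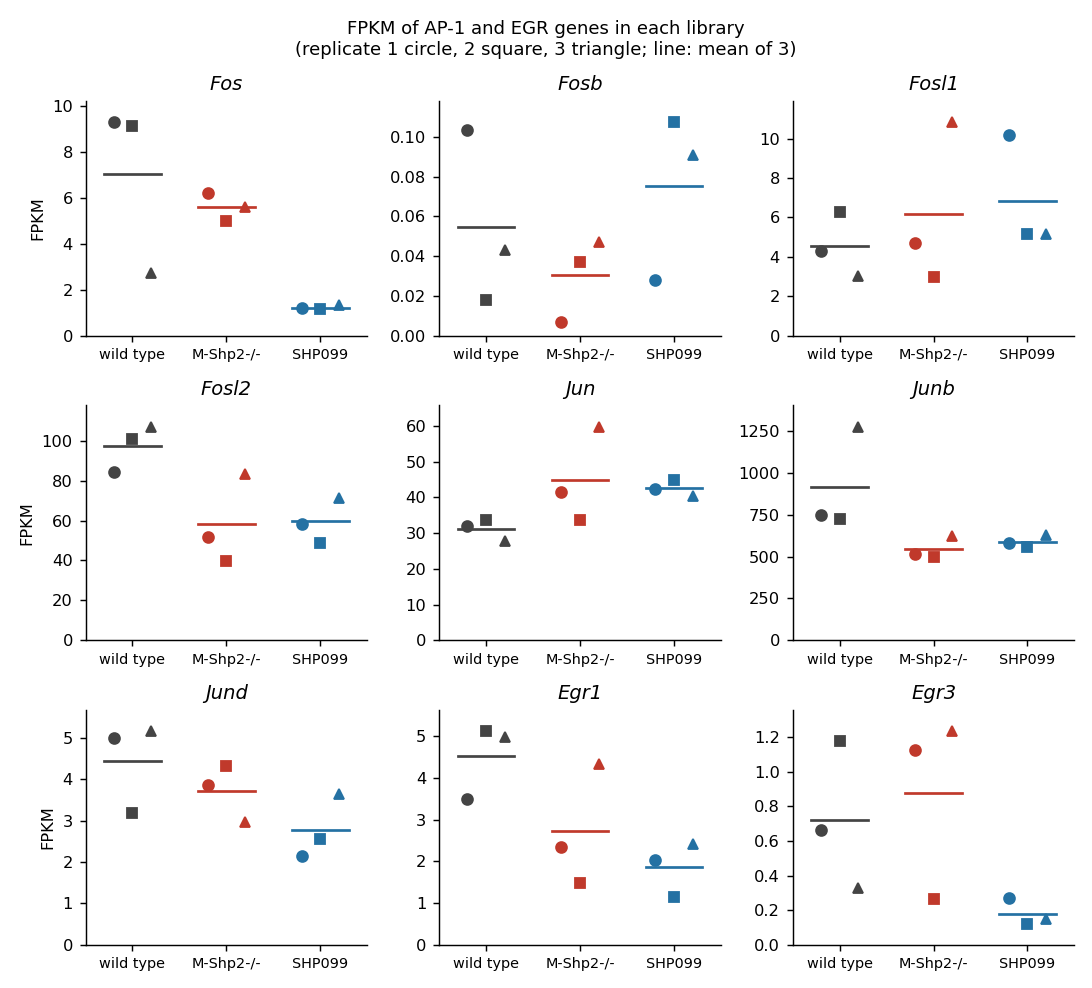
FPKM of 9 members in each library (vertical axes, linear, each from 0), by group, with replicates 1, 2 and 3 as circle, square and triangle and the mean of 3 as a line. Fos is lowest in the SHP099 libraries at 1.17 to 1.32 FPKM, and wild-type replicate 3 stands apart in Fos and Junb; Egr2, at 0 in every library, is not drawn.

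In M-Shp2-/- macrophages, no member passed the test against wild type. Differences are log2 fold changes on the log2(FPKM + 1) scale, which understates the change of genes with low FPKM. Of the 7 members tested, 5 had a lower and 2 a higher mean log2 value, and none met both an adjusted p up to 0.005 and a 2-fold change (limma), against 0.00873% of all genes tested (1 gene). At an adjusted p of at most 0.05 the count was also 0 of 7, against 0.0873% of all genes (10 genes). At an unadjusted p under 0.05 from limma, it was 2 of 7, against 10.5% of all genes. At an adjusted p up to 0.05, voom on recovered reads also gave 0 of 7. For 2 members, Fosl2 and Junb, every M-Shp2-/- library was below every wild-type library, a pattern that 3.07% of all genes showed. For 1 member, Jun, every M-Shp2-/- library was above, a pattern of 16.0% of all genes. The median log2 fold change was -0.20 over the 7 members and 0.15 over all genes. Median-of-ratios scaling moved the median over all genes to -0.01, and no member changed direction with it.

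With SHP099, more members passed the less strict threshold. Fos, Fosl2 and Egr1 were lower and Jun was higher than in wild type at an adjusted p of at most 0.05 (limma), which makes 4 of 7 members against 6.96% of all genes (797 genes). By direction, these were 3 members against 2.41% of all genes lower, and 1 member against 4.55% higher. None of the 7 met the stricter threshold (0.005 and 2-fold), against 0.166% of all genes (19 genes), and 6 of 7 had an unadjusted p under 0.05, against 26.7% of all genes. All SHP099 libraries lay below all wild-type libraries for Fos, Fosl2, Junb and Egr1, a pattern of 6.77% of all genes, and above them for Jun, a pattern of 27.9% of all genes. The median log2 fold change was -0.59 over the 7 members and 0.13 over all genes, and median-of-ratios scaling moved the latter to -0.01. The adjusted p values of the 4 members were between 0.0418 and 0.0475, just inside the threshold. Fewer of the 4 passed in most alternatives, and none when any SHP099 library was left out.

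The 2 comparisons share the 3 wild-type libraries, so M-Shp2-/- and SHP099-treated macrophages were also compared directly. Fos was the member that differed between them at an adjusted p of at most 0.05 (limma), 1 of 7 members against 0.0699% of all genes (8 genes, among them Ptpn11). No member and no gene (0%) met the stricter threshold (limma), and 1 of 7 members had an unadjusted p under 0.05, against 12.6% of all genes. Fos was also the member whose M-Shp2-/- libraries all lay above the SHP099 libraries, a pattern of 7.90% of all genes, and no member had them all below, a pattern of 9.76%. For the other 6 members the direct differences lay between -0.22 and 0.33 on the log2 scale, with intervals that include 0.

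**Figure D2:**
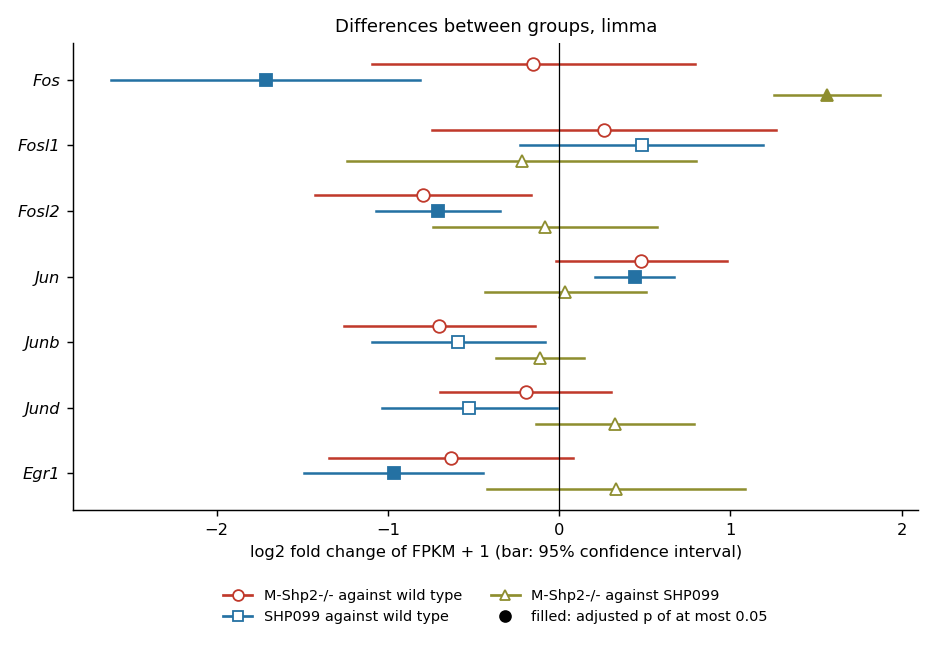
Log2 fold change of FPKM + 1 (horizontal axis) of the 7 members tested, with 95% confidence intervals from limma as bars, in 3 comparisons; filled symbols have an adjusted p of at most 0.05. Fos is at -1.71 with SHP099 against wild type and at 1.56 in M-Shp2-/- against SHP099, and no symbol is filled in M-Shp2-/- against wild type.

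Fos (ENSMUSG00000021250, chromosome 12 of GRCm38, 85473890 to 85477273) encodes the founding partner of JUN in AP-1 and is known for a brief burst of transcription. Its FPKM was 9.29, 9.13 and 2.73 in wild-type, 6.19, 4.98 and 5.60 in M-Shp2-/- and 1.19, 1.17 and 1.32 in SHP099-treated macrophages. The SHP099 libraries lay close together and below every other library, and wild-type replicate 3 was the lowest of the remaining 6. These values rest on 51 to 63 recovered reads per library with SHP099 and on 127 to 508 in the other libraries. The mean with SHP099 was 1.23 ± 0.0786 (SD, n = 3) against 7.05 ± 3.74 (SD, n = 3) in wild type, so that 17.4% of the wild-type level was measured. The log2 fold change was -1.71 (SE 0.38, adjusted p = 0.0445 from limma). Without wild-type replicate 3 it was -2.20 with an adjusted p of 0.00394, and without any other library the adjusted p was 0.0918 to 0.175. The alternatives together gave adjusted p values of 0.00394 to 0.175.

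The M-Shp2-/- mean of Fos was 5.59 ± 0.604 (SD, n = 3), inside the range of the wild-type libraries. The log2 fold change against wild type was -0.15 (SE 0.40, adjusted p = 0.856 from limma), with a 95% confidence interval of -1.09 to 0.79 that includes a 2-fold decrease. Its sign rested on the wild-type libraries, since it was 0.10 without replicate 1, 0.09 without replicate 2 and -0.64 without both wild-type replicate 3 and M-Shp2-/- replicate 3. Against SHP099 the level was 4.56 times as high, with a log2 fold change of 1.56 (SE 0.13, 95% confidence interval 1.25 to 1.87, adjusted p = 0.0163 from limma). It was higher in 3 of 3 M-Shp2-/- libraries than in every SHP099 library. With a library left out the difference was at most 1.63, with an adjusted p of 0.0024 without M-Shp2-/- replicate 3 and of 0.0689 to 0.198 without any other. With all 9 libraries in the same fit, where the wide wild-type spread enters, the adjusted p was 0.287, the highest of the alternatives (0.0024 to 0.287).

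Markers of some other cells differed between the groups as well, and some were low with SHP099. The summed FPKM of 5 dendritic cell genes, most of it Ccr7, was 5.41, 3.12 and 3.25 in wild-type, 6.46, 4.34 and 2.46 in M-Shp2-/- and 0.799, 0.438 and 0.842 in SHP099-treated macrophages. Flt3, Xcr1, Clec9a and Cd209a were under 1 FPKM in every library. Of these, Xcr1 was not low with SHP099, at 0.0304, 0.0396 and 0.148 in wild-type, 0.0312, 0.0109 and 0.0394 in M-Shp2-/- and 0.0614, 0.107 and 0.0615 with SHP099. The sum of 4 mast cell genes, with Kit the most abundant by mean, was 5.20, 2.44 and 3.49, then 2.07, 3.15 and 0.954, and then 0.401, 0.355 and 0.463 in the same order, with Cpa3 and Mcpt4 under 1 FPKM throughout. The sum of 4 T cell genes went the other way, at 0.668, 1.75 and 4.01, then 0.324, 0.288 and 2.36, and then 5.40, 3.91 and 3.56, with overlap of wild type and SHP099. The eosinophil gene Siglecf, under 1 FPKM throughout, was also low with SHP099. Its FPKM was 0.367, 0.260 and 0.515 in wild-type, 0.720, 0.508 and 0.0447 in M-Shp2-/- and 0.0232, 0.0128 and 0.0116 in SHP099-treated macrophages. The macrophage gene Mrc1, given above, was also lowest in the SHP099 libraries, and Csf1r was highest there. Not every marker set examined is shown here, because some results need items withheld for evaluation. Fewer cells of a type and less RNA per cell cannot be told apart in bulk samples, and the part of such cells in the Fos difference was not tested.

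Fosl2 (ENSMUSG00000029135, chromosome 5, 32135801 to 32157842) encodes FRA-2, a FOS protein that lacks the strong activation domain of FOS. Its FPKM was 84.2, 101 and 107 in wild-type, 51.7, 39.5 and 83.4 in M-Shp2-/- and 58.5, 48.9 and 71.3 in SHP099-treated macrophages. All 6 M-Shp2-/- and SHP099 libraries lay below the same 3 wild-type libraries. However, M-Shp2-/- replicate 3 at 83.4 came close to wild-type replicate 1 at 84.2. Separately, 3.07% and 6.77% of all genes showed these patterns, and the share with both was not counted. With SHP099 the mean was 59.6 ± 11.3 against 97.4 ± 11.8 (SD, n = 3 each), a log2 fold change of -0.71 (SE 0.15, adjusted p = 0.0418 from limma). Leaving out any library moved the adjusted p to between 0.0609 and 0.160, and median-of-ratios scaling to 0.0624 (all alternatives: 0.036 to 0.160). The M-Shp2-/- mean was 58.2 ± 22.7 (SD, n = 3) and the log2 fold change -0.79 (SE 0.26, adjusted p = 0.460 from limma). Without both wild-type replicate 3 and M-Shp2-/- replicate 3, it was -1.01 with an adjusted p of 0.113 (all alternatives: 0.113 to 0.890).

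Fosl1 (ENSMUSG00000024912, chromosome 19, 5447547 to 5455946) encodes FRA-1, the other FOS protein of this kind. Its FPKM was 4.30, 6.27 and 3.03 in wild-type, 4.69, 2.99 and 10.8 in M-Shp2-/- and 10.2, 5.16 and 5.17 in SHP099-treated macrophages. The groups overlapped, and 1 library in each of the last 2 groups stood well above the others. The log2 fold change was 0.26 (SE 0.42, adjusted p = 0.758 from limma) in M-Shp2-/- and 0.48 (SE 0.30, adjusted p = 0.355 from limma) in SHP099-treated macrophages, and without M-Shp2-/- replicate 3 the former was -0.17. Exons of Fosl1 share 1163 of their 2033 bases with Ccdc85b on the opposite strand, so reads from the shared bases cannot be told apart here. Ccdc85b was at 7.99, 12.4 and 6.14 FPKM in wild-type, 16.8, 13.7 and 15.7 in M-Shp2-/- and 18.3, 18.5 and 14.3 in SHP099-treated macrophages. All M-Shp2-/- and all SHP099 libraries thus lay above wild type, patterns of 16.0% and 27.9% of all genes. The part of Ccdc85b reads in the Fosl1 values was not tested.

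The level of Fosl1 moved with stromal transcripts. The summed FPKM of 7 fibroblast and mesothelial genes (Col1a1, Col1a2, Col3a1, Dcn, Msln, Upk3b and Krt19) was 57.0, 274 and 36.6 in wild-type, 123, 45.9 and 549 in M-Shp2-/- and 335, 127 and 95.1 in SHP099-treated macrophages. The 3 libraries with the highest sums were also the 3 with the highest Fosl1, and the 2 with the lowest sums the 2 with the lowest Fosl1. Col1a1 was the most abundant of the 7 at 10.0 to 206 FPKM, and Upk3b was under 1 FPKM in every library. The part of stromal cells in the Fosl1 values was not tested.

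**Figure D3:**
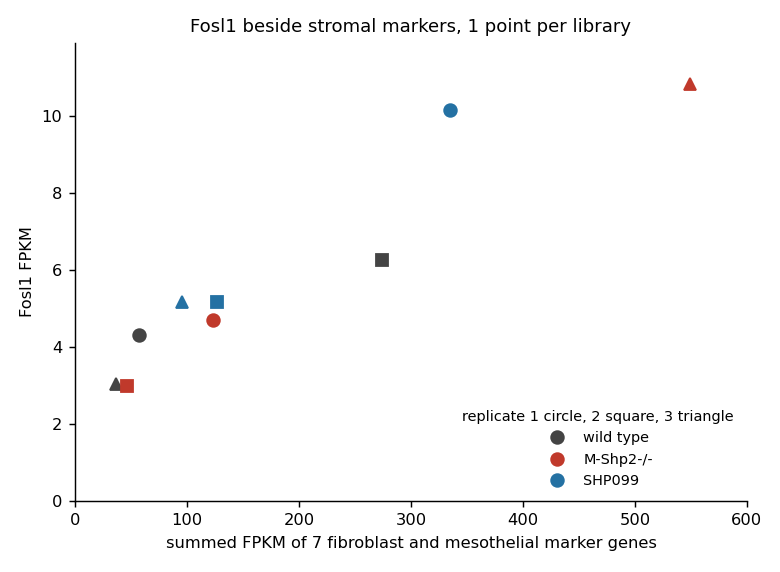
FPKM of Fosl1 (vertical axis) against the summed FPKM of 7 fibroblast and mesothelial marker genes (horizontal axis), 1 point per library, coloured by group and shaped by replicate. M-Shp2-/- replicate 3, with a sum of 549, has the highest Fosl1 at 10.8 FPKM, and wild-type replicate 3 and M-Shp2-/- replicate 2, with sums under 50, have the lowest.

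Fosb (ENSMUSG00000003545, chromosome 7, 19302696 to 19310051), the fourth FOS gene, was barely detected. Its FPKM lay between 0.00708 and 0.107, which stands for 1 to 15 recovered reads per library, with overlap of all groups. Tested only without the filter, Fosb passed in no comparison (adjusted p of 0.666 to 0.797 from limma).

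Junb (ENSMUSG00000052837, chromosome 8, 84974484 to 84978718) encodes a JUN protein that activates fewer genes on its own than JUN and forms dimers with FOS and BATF proteins in immune cells. Its FPKM was 745, 725 and 1275 in wild-type, 513, 499.6 and 625 in M-Shp2-/- and 579.6, 555 and 628 in SHP099-treated macrophages. All 6 M-Shp2-/- and SHP099 libraries lay below the lowest wild-type library, and wild-type replicate 3 lay far above the others. Both comparisons use the same wild-type libraries. Separately, 3.07% and 6.77% of all genes showed these patterns, and the share with both was not counted. In M-Shp2-/- macrophages 59.7% of the wild-type mean was measured, with a log2 fold change of -0.70 (SE 0.23, adjusted p = 0.460 from limma). With SHP099 it was 64.2%, with a log2 fold change of -0.59 (SE 0.21, adjusted p = 0.138 from limma). Neither passed the threshold in any alternative, and without wild-type replicate 3 the log2 fold changes were -0.44 and -0.32. Exons of Junb share 173 of 2301 bases with Prdx2 on the opposite strand, which was at 52.9 to 78.3 FPKM.

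Jun (ENSMUSG00000052684, chromosome 4, 95049034 to 95052222), a gene of 1 exon, encodes the main partner of FOS and a substrate of the JNK kinases. It went the other way from Junb. Its FPKM was 32.0, 33.6 and 27.8 in wild-type, 41.4, 33.7 and 59.8 in M-Shp2-/- and 42.4, 44.9 and 40.5 in SHP099-treated macrophages. The SHP099 libraries lay together above the wild-type libraries, whereas M-Shp2-/- replicate 2 at 33.651 was barely above wild-type replicate 2 at 33.646. With SHP099 the mean was 42.6 ± 2.23 against 31.1 ± 3.02 (SD, n = 3 each), a log2 fold change of 0.44 (SE 0.10, adjusted p = 0.0438 from limma). With median-of-ratios scaling it was 0.30 with an adjusted p of 0.0712, and with a library left out the adjusted p was 0.0377 (without wild-type replicate 3) to 0.192 (all alternatives: 0.0367 to 0.192). In M-Shp2-/- macrophages the log2 fold change was 0.48 (SE 0.21, adjusted p = 0.478 from limma), and 0.18 without both wild-type replicate 3 and M-Shp2-/- replicate 3. Within wild type and within M-Shp2-/-, the order of the libraries by Jun was also their order by the stromal sums given for Fosl1, which was not so within SHP099, and the part of stromal cells in the Jun values was not tested. The ratio of Junb to Jun FPKM was 23.3, 21.5 and 45.9 in wild-type, 12.4, 14.8 and 10.4 in M-Shp2-/- and 13.7, 12.4 and 15.5 in SHP099-treated macrophages. Its lack of overlap between wild type and the others follows from the values of both genes and is not a further result. Junos, on the opposite strand, shares 232 of 3189 exon bases of Jun and was at 0.735 to 2.57 FPKM.

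Jund (ENSMUSG00000071076, chromosome 8, 70698949 to 70700616), also of 1 exon, encodes the JUN protein that is usually present in resting cells. Its FPKM was 5.00, 3.18 and 5.16 in wild-type, 3.86, 4.31 and 2.97 in M-Shp2-/- and 2.14, 2.56 and 3.64 in SHP099-treated macrophages. The groups overlapped. The log2 fold changes were -0.20 (SE 0.21, adjusted p = 0.652) in M-Shp2-/- and -0.52 (SE 0.22, adjusted p = 0.179) in SHP099-treated macrophages, both from limma. The predicted gene Gm11175 on the opposite strand lies within the exon of Jund, over 877 of its 1668 bases, and was listed at 0 in every library; reads from these bases cannot be assigned by position alone.

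Egr1 (ENSMUSG00000038418, chromosome 18, 34859823 to 34864984) encodes the zinc finger factor for which the family is best known, a classical target of ERK and serum response factor. Its FPKM was 3.50, 5.12 and 5.00 in wild-type, 2.35, 1.48 and 4.33 in M-Shp2-/- and 2.03, 1.14 and 2.41 in SHP099-treated macrophages. The SHP099 libraries lay below all wild-type libraries, and of the M-Shp2-/- libraries replicate 3 lay among the wild-type values. With SHP099 the mean was 1.86 ± 0.650 against 4.54 ± 0.902 (SD, n = 3 each), or 41.0% of wild type. The log2 fold change was -0.97 (SE 0.22, adjusted p = 0.0475 from limma). With median-of-ratios scaling the adjusted p was 0.0527, and with a library left out it was 0.0686 to 0.168 (all alternatives: 0.0418 to 0.168). In M-Shp2-/- macrophages the log2 fold change was -0.63 (SE 0.30, adjusted p = 0.478 from limma), and -0.86 with an adjusted p of 0.149 (all alternatives: 0.149 to 0.890) without both wild-type replicate 3 and M-Shp2-/- replicate 3.

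Egr3 (ENSMUSG00000033730, chromosome 14, 70077203 to 70082614), a relative of Egr1 studied mostly in lymphocytes, was low. Its FPKM was 0.661, 1.18 and 0.326 in wild-type, 1.12, 0.267 and 1.23 in M-Shp2-/- and 0.269, 0.123 and 0.149 in SHP099-treated macrophages. The SHP099 libraries, with 12 to 29 recovered reads, lay below the wild-type libraries, with 34 to 147 reads, but overlapped the M-Shp2-/- libraries. Since its mean was under 1 FPKM, Egr3 was tested only without the filter, where the log2 fold change with SHP099 was -0.52 (SE 0.19, adjusted p = 0.308 from limma). Egr2 (ENSMUSG00000037868, chromosome 10, 67535475 to 67542188), a factor known from macrophage and nerve sheath differentiation, was listed at 0 in all 9 libraries.

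Members also varied together across the 9 libraries, which include the group differences. Fosl2 and Egr1 had a Pearson correlation of 0.93, Fosl2 and Junb of 0.82, and Fosl1 and Jun of 0.77, whereas Fosl1 and Jund had -0.80. These are descriptions over 9 libraries that share 3 groups. Among the other genes tested, those most like Fos were Eif4e (0.969), Odc1 (0.959) and Eif4a1 (0.958). Odc1, the ornithine decarboxylase of polyamine synthesis, was at 148, 151 and 110.2 FPKM in wild-type, 126, 106 and 111 in M-Shp2-/- and 65.0, 54.9 and 62.5 in SHP099-treated macrophages. Most like Fosl2 were Dusp16 (0.975), Upp1 (0.967) and Ifitm3 (0.940), and most like Egr1 were Ccl6 (0.958), Cyfip1 (0.955) and Osm (0.950). Most like Junb were Usp18 (0.978), Mx2 (0.968) and Gm47242 (0.966). Usp18 and Mx2 are interferon-stimulated genes, and Usp18 was at 13.0, 17.3 and 55.9 FPKM in the wild-type libraries, highest in replicate 3 as Junb was. Jun was closest to Ust (0.964), Rhoa (0.957) and Mob4 (0.952). Fosl1 was closest to Obsl1 (0.978) and to the mitotic genes Nusap1 (0.977) and Tacc3 (0.963), and Jund to Ikzf1 (0.970), Psmb6 (0.967) and Fhl3 (0.966).

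Of 21 other bZIP genes tested, such as ATF, BATF and small MAF factors, 2 rose and 1 fell with SHP099 at an adjusted p of at most 0.05 (limma), against 4.55% and 2.41% of all genes, and none passed in M-Shp2-/- macrophages or in the direct comparison. The median log2 fold change was 0.16 with SHP099 and -0.01 in M-Shp2-/-, against 0.13 and 0.15 over all genes. Batf, which pairs with JUN proteins, fell with SHP099 from 112 ± 12.5 to 66.9 ± 2.75 FPKM (SD, n = 3 each), or by -0.73 on the log2 scale (limma, adjusted p = 0.0149). Mafg rose from 199.8 to 310.2 FPKM (log2 fold change 0.64, adjusted p = 0.0175) and Atf6 from 12.0 to 20.3 FPKM (log2 fold change 0.70, adjusted p = 0.0269). Atf3, a stress-induced repressor, differed by -0.12 (adjusted p = 0.614) and Jdp2 by 0.48 (adjusted p = 0.312).

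Of 12 EGR partners and serum response factors tested, 1 rose and 1 fell with SHP099, against 4.55% and 2.41% of all genes; their median was 0.09, beside 0.13 over all genes. None passed in M-Shp2-/- macrophages, where the median was 0.05 against 0.15. Nab2, a corepressor that EGR proteins themselves induce, fell with SHP099 from 14.4 ± 3.03 to 8.32 ± 0.800 FPKM (SD, n = 3 each), or by -0.71 on the log2 scale (limma, adjusted p = 0.0439). Its relative Nab1 differed by 0.34 (adjusted p = 0.109). Srf, serum response factor, differed by -0.42 without passing the threshold, and its ternary complex partners Elk1 and Elk3 by -0.02 (adjusted p = 0.911) and -0.75 (adjusted p = 0.0534). Ets2 rose from 355 to 515 FPKM (log2 fold change 0.53, adjusted p = 0.0207). Egr4, a further EGR gene, was at 0 in 8 libraries and at 0.0408 FPKM in M-Shp2-/- replicate 3.

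Other immediate early genes leaned the way of Fos and Egr1. Of 37 tested, 6 fell and 2 rose with SHP099 at an adjusted p of at most 0.05 (limma), against 2.41% and 4.55% of all genes, and the median log2 fold change was -0.28 against 0.13 over all genes. None passed in M-Shp2-/- macrophages, where the median was -0.20 against 0.15 over all genes, or in the direct comparison, where it was 0.20 against 0.02. Ier2 was at 45.4, 43.0 and 68.8 FPKM in wild-type, 29.7, 26.3 and 33.2 in M-Shp2-/- and 19.8, 20.3 and 24.9 in SHP099-treated macrophages. Neither group overlapped wild type, and the log2 fold changes were -0.77 (adjusted p = 0.433) in M-Shp2-/- and -1.21 (adjusted p = 0.0206) with SHP099. Rhob, a small GTPase, fell with SHP099 by 0.93 on the log2 scale (adjusted p = 0.0151), Nfil3 by 0.99 (adjusted p = 0.0192) and Ier3 by 0.80 (adjusted p = 0.0268). Klf2 rose by 1.14 (adjusted p = 0.0236). For Nr4a1, Zfp36, Myc, Dusp1 and Klf6 the log2 fold changes with SHP099 were -0.35, -0.36, -0.30, -0.33 and 0.11, with adjusted p values of 0.0785 to 0.757. Zfp36, whose protein destabilizes AU-rich messages, was at 39.4, 30.6 and 75.3 FPKM in the wild-type libraries, again highest in replicate 3.

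**Figure D4:**
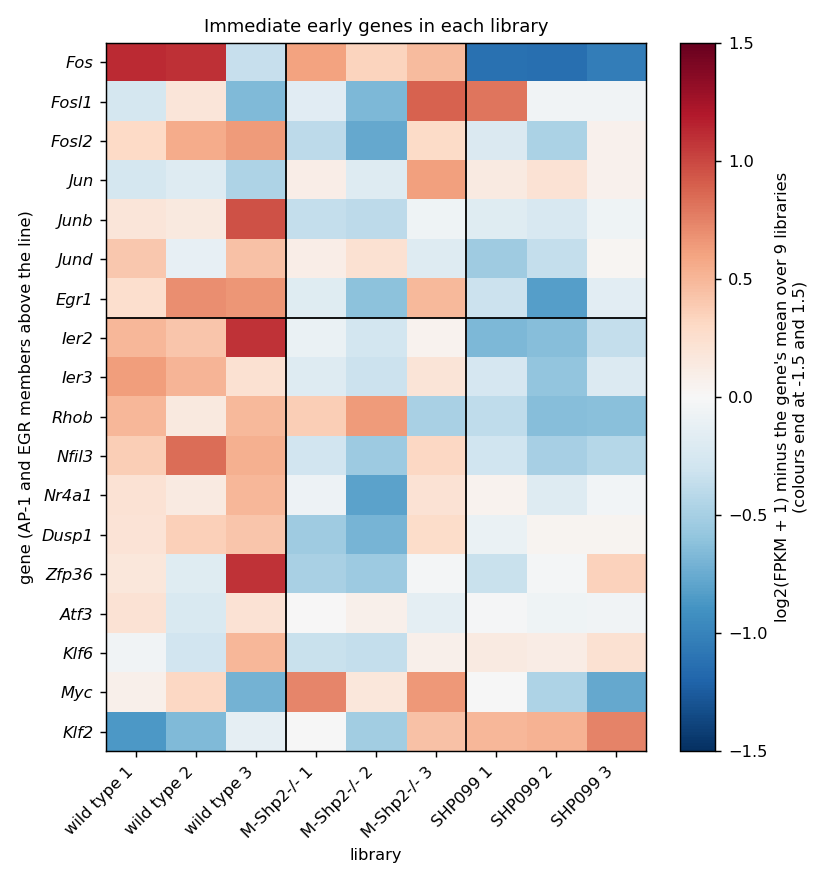
Log2(FPKM + 1) of each library (columns) minus the mean of the gene over the 9 libraries, for the 7 members tested (above the line) and 11 other immediate early genes (below). Fos is lowest in the 3 SHP099 libraries, and Junb, Ier2 and Zfp36 share their highest value in wild-type replicate 3.

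Of 30 genes of the ERK, JNK and p38 cascades tested, 27 did not pass with SHP099 at an adjusted p of at most 0.05 (limma). Of all genes, 6.96% passed. None of the 30 passed in M-Shp2-/- macrophages. The median log2 fold change with SHP099 was 0.10, against 0.13 over all genes. Mapk8, the gene of JNK1, rose with SHP099 from 10.8 to 15.6 FPKM (log2 fold change 0.49, adjusted p = 0.0365 from limma). Rps6ka2, of the RSK kinases that ERK activates, fell from 41.1 to 16.1 FPKM (-1.29, adjusted p = 0.00443), and was at 48.2, 61.6 and 13.9 FPKM in the M-Shp2-/- libraries, lowest in replicate 3. Among 9 ERK feedback genes, 1 rose and 1 fell with SHP099 (4.55% and 2.41% of all genes), with a median of -0.05 against 0.13 over all genes. Etv5 rose by 0.94 (adjusted p = 0.0142), Dusp5 fell by 0.86 on the log2 scale (adjusted p = 0.0209), and Spred1 differed by 0.33 (adjusted p = 0.0601). None of the 9 passed in M-Shp2-/- macrophages.

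Genes that textbooks list as targets of AP-1 or EGR proteins were examined last. Of 26 tested, 14 fell and 1 rose with SHP099 at an adjusted p of at most 0.05 (limma), against 2.41% and 4.55% of all genes, and the median was -1.08 on the log2 scale, beside 0.13 over all genes. In M-Shp2-/- macrophages 4 fell, against 0.0873% of all genes called in either direction, with a median of -0.28 against 0.15. In the direct comparison none passed, and the median was 0.56 against 0.02. Mmp13, a collagenase, was at 8.63, 12.9 and 14.2 FPKM in wild-type, 5.66, 4.38 and 5.86 in M-Shp2-/- and 2.56, 2.11 and 2.54 in SHP099-treated macrophages. Its log2 fold change was -1.02 (adjusted p = 0.388 from limma) in M-Shp2-/- and -1.90 (adjusted p = 0.00769) with SHP099. Il1b and Il6 fell in both groups, with log2 fold changes of -2.48 and -4.25 for Il1b and of -2.17 and -2.93 for Il6 in M-Shp2-/- and SHP099-treated macrophages (adjusted p of 0.00117 to 0.0129 from limma). The study had already reported Il1b and Il6 as lower in these macrophages, and the list was set with earlier results of these data known. Its counts are therefore not independent support for a fall of AP-1 or EGR targets. These genes have other regulators as well, and no link between factor and target was tested.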

How the data were processed

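The authors deposited FPKM for 54059 genes in 9 libraries; per the labels' processing notes, CASAVA 1.8 called bases, HISAT2 2.0.4 aligned the reads and HTSeq 0.9.1 counted them per gene. The tool that made FPKM, the build, the annotation and the strand setting are not given in the sources used here. Gene spans in a further table of the authors, used only for this, were identical in GENCODE M21 (GRCm38) for 91.8% of 5235 genes, and symbols and positions come from it (353 deposited genes are not in it). In each library 96.3% to 96.7% of values of up to 50 reads were whole reads (within 0.05) at the mean transcript length, which gives the recovered reads.

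Groups came from the labels. Values were analysed as log2(FPKM + 1) for genes averaging 1 FPKM or more, with limma 3.58.1 (lmFit, eBayes with trend) in R 4.3.3 on the 6 libraries of each comparison, and Benjamini-Hochberg adjustment over 11450 genes. DESeq, which the study used, needs counts and was not used. With 3 libraries per group, the smallest two-sided p of an exact permutation test is 0.1. The procedure was tested on simulated data. The members and lists were chosen with earlier results of these data known. From each list, the 3 genes with the smallest adjusted p against wild type and a set of fixed names are given (some results are not shown because they need items withheld for evaluation), and for each member tested the 3 genes with the highest Pearson correlation. Alternatives were pseudocounts of 0.1 and 5, no filter, a minimum mean of 5 FPKM, median-of-ratios scaling, quantile normalization, no trend, all 9 libraries in the same fit, the replicate number as a block, voom on recovered reads and each library left out. Leaving out wild-type and M-Shp2-/- replicate 3 together was added after seeing the data. Tables and figures were made in Python 3.11.15 with pandas 2.3.3, matplotlib 3.10.9 and numpy 2.4.6.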

Additional observations from a re-analysis of the deposited data

Results flagged for a closer look

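Fos was picked out because the direct comparison of M-Shp2-/- and SHP099-treated macrophages passed for it and for no other member. Against the same wild-type libraries it was at -0.15 on the log2 scale in M-Shp2-/- and at -1.71 in SHP099-treated macrophages. The direct comparison of the 3 M-Shp2-/- and 3 SHP099 libraries with limma gave 1.56 (SE 0.13, adjusted p = 0.0163). This is the value by which Fos was picked out, and it is not a separate test of the difference. The adjusted p ranged from 0.0024 to 0.287 over the alternatives. The groups differ in genotype and in exposure to the compound, and these cannot be told apart here.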

How the results depend on the processing

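No alternative made a member pass in M-Shp2-/- against wild type at either threshold. With SHP099, the count of members with an adjusted p of at most 0.05, 4 as reported, was 0 without the filter, 2 at a minimum mean of 5 FPKM (where Fos, Jund and Egr1 are not tested), 1 with median-of-ratios scaling, 0 without the trend, 1 with all 9 libraries in the same fit, 2 with the replicate number as a block, and 0 to 2 with a library left out. At the stricter threshold (0.005 and 2-fold) it was 0, and 0 to 1 with a library left out (Fos, without wild-type replicate 3). In the direct comparison the count at 0.05, 1 as reported, was 0 without the filter, 0 at a minimum mean of 5 FPKM, 0 with all 9 libraries, 0 with the block and 0 to 1 with a library left out. The stricter count was 0 to 1 there (Fos, without M-Shp2-/- replicate 3, where 159 of all genes passed against 0 as reported). The replicate numbers do not pair the samples: same-numbered libraries of M-Shp2-/- and wild type had correlations of their deviations from -0.43 to 0.49, and those of SHP099 and wild type from -0.09 to 0.45.

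Counts over all genes moved as well. At 0.05, SHP099 against wild type gave 797 genes as reported, 74 without the filter, 511 with median-of-ratios scaling and 47 to 1273 with a library left out. At the stricter threshold it gave 19 genes as reported, 0 without the filter, 4 without the trend, 0 with the block, 9 with voom and 0 to 26 with a library left out. M-Shp2-/- against SHP099 gave 8 genes, 2277 without M-Shp2-/- replicate 3 and 0 to 2 without any other library. It gave 3 without the filter, 17 at a minimum mean of 5 FPKM, 3 with all 9 libraries, 0 with the block and 14 with voom. M-Shp2-/- against wild type gave 10 genes, 6 without the trend, 2 with the block and 1 to 8 with a library left out.

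Of 334 log2 fold changes of members under alternatives, 275 kept direction and side of the 0.05 threshold, 49 lost the threshold, 0 gained it and 10 changed sign, all of them in values that had not passed. In M-Shp2-/- against wild type, with a library left out, Fos lay between -0.63 and 0.10 and Fosl1 between -0.17 and 0.61. Without both replicate 3 libraries, Fos was at -0.64, Fosl1 at -0.38 and Jund at 0.0218. In the direct comparison Fosl1 lay between -0.66 and 0.13, Fosl2 between -0.37 and 0.16 and Jun between -0.19 and 0.22. No member changed sign in SHP099 against wild type.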

Other observations

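Egr2 was listed at 0 in all 9 libraries, and 2 of its neighbours on chromosome 10, chosen after their values were seen, were nearly so. Ado was at 0 to 0.0103 FPKM and Nrbf2 at 0 to 0.0381 FPKM, whereas Jmjd1c, on the far side of Nrbf2, was at 9.98 to 12.2 FPKM. Zfp365, on the far side of Ado, had 4 to 55 recovered reads per library (0.0381 to 0.524 FPKM). Whether Egr2 was not transcribed or its reads were not assigned was not tested.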
